A study of Mus musculus with 27 samples.

Results

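The genes of endoplasmic reticulum (ER) stress and protein folding are described here across 27 mouse livers. They are 35 genes taken by symbol from a list of chaperones, stress sensors, their target genes and degradation factors, and all 35 were found among the 17655 genes of the 4 deposited tables. They fall into 4 branches, with 15 chaperones and folding enzymes, 3 genes of the IRE1/XBP1 and ATF6 sensors, 10 genes of the PERK/ATF4 branch and 7 genes of ER-associated degradation. Proteins that are to be secreted fold in the ER, and the hepatocyte, which makes most plasma proteins, carries a large folding load. When unfolded protein accumulates, the kinase IRE1 (*Ern1*) splices the messenger of the transcription factor XBP1, ATF6 is released to the nucleus, and the kinase PERK (*Eif2ak3*) slows translation while favouring the transcription factor ATF4. XBP1 and ATF6 are known to drive chaperone and degradation genes, and ATF4 amino acid, redox and cell death genes such as *Chac1*, *Trib3* and *Ddit3*.

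RNA was sequenced from whole liver of *Kdm5b* fl/fl mice, with 3 mice in each of 9 conditions and 1 library per mouse. The gene *Kdm5b* encodes a histone demethylase. All mice carried the floxed allele and received an AAV (adeno-associated virus), which was a control virus in the mice called WT, AAV8-CMV-Cre (AAV-CMV-Cre in the labels of Res mice) in the mice called KO, and AAV8-TBG-Cre in the mice called HepKO. The CMV virus is directed to the liver but to no single cell type, and the TBG promoter is active in hepatocytes. The virus was given at alcohol cessation in Res mice and at the start of feeding in WDA mice. Mice were on a Western diet with alcohol (WDA; 8 weeks in the labels), or were taken through 4 weeks of resolution (Res) after WDA for 16 weeks. In the paper, mice in resolution were fed chow and drank plain water, so that diet and alcohol changed together. There were WT and KO females and males at both stages, and HepKO females on WDA only. No condition without WDA was included, and the age of the mice is not in the labels. All WDA mice belong to one experiment and all Res mice to another, and the sexes are in separate tables. Alcohol withdrawal, the change of diet, the weeks on WDA, the time of the virus and the experiment therefore cannot be told apart. Each value below is 1 mouse, and p-values measure the spread between mice of 1 cohort.

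Libraries held 14634602 to 19388251 counts (median 17944536), of which 0.400% to 0.802% fell on the 35 genes. Levels are given as CPM, the usual depth-adjusted unit, here with library sizes scaled by TMM factors. *Kdm5b* itself was at 10.6 to 13.04 CPM in KO Res females against 16.6 to 17.8 in WT Res females. In Res males it was at 7.89 to 17.4 CPM in KO against 18.8 to 19.6 in WT. In WDA males the levels were close, at 20.3 to 21.8 CPM in KO against 23.7 to 24.6 in WT. The library labelled KO WDA females mouse 1 had 24.3 CPM, inside the WT WDA female range of 21.5 to 30.98, and KO WDA females mice 2 and 3 had 15.9 and 14.4. HepKO WDA females had 8.27 to 17.6 CPM. The deleted exons cannot be read from counts per gene. All 6 hepatocyte markers were detected in every library, with a summed level of 73374 to 169206 CPM. Most of this sum was *Alb*, with a median of 75330 CPM, against medians of 1703 to 5846 for the other markers. In 5 libraries the 6 cholangiocyte markers summed to more than 50 CPM, against at most 34.7 elsewhere. These were KO WDA males mouse 17, WT WDA females mouse 7, WT Res females mouse 13, KO Res males mouse 5 and WT Res males mouse 9. The 7 stellate or fibroblast markers summed to 776, 664, 520.0, 391 and 379 CPM in these, in the same order. Pancreatic acinar markers summed to 242 CPM in WT Res females mouse 13 and to at most 5.48 CPM in any other library. In whole liver, fewer cells of a type and less RNA per cell cannot be told apart.

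The promoters of the genes were searched for sequence elements known from this pathway. The ER stress response element (ERSE) was searched as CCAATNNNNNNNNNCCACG on both strands, in RefSeq windows of GRCm38.p6 from 250 bases before to 50 bases after each gene's start. Windows were at hand for 30 of the 35 genes, all but *Derl1*, *Manf*, *Ppp1r15b*, *Atf6* and *Hyou1*. An ERSE stood in 9 of these 30 genes, each counted once, against 39 of all 32841 windows (0.119%). It was found for 7 of 13 chaperones (*Hspa5*, *Hsp90b1*, *Calr*, *Canx*, *Pdia6*, *Dnajc3* and *Creld2*) and for 2 of 6 degradation genes (*Syvn1* and *Derl3*), and for 0 of 9 genes of the PERK/ATF4 branch. ERSE-II, searched as ATTGG and CCACG set 1 base apart, stood in 12 windows in all (0.0365%), among them those of *Herpud1* and *Dnajb11*. The ATF4 composite site, TGATGNAA, had the opposite pattern. It lay in 5 of 9 windows of the PERK/ATF4 branch (*Atf3*, *Trib3*, *Chac1*, *Asns* and *Nupr1*), in that of *Herpud1* and in 0 of 13 chaperone windows, against 3.97% of all windows. The XBP1 core site (UPRE), TGACGTG, lay in 2.01% of all windows and, among the 30, in that of *Hspa5* alone. These are matches of letters and not measured binding.

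The following stretches are shown because they hold these elements, in capitals, upstream of genes whose levels are described below. Each is written 5′ to 3′ along its gene's strand. In *Creld2* and *Calr* the ERSE lies on the opposite strand and reads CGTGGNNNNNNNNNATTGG. In *Hspa5* the first capitals are the UPRE core and the second the ERSE, and in *Herpud1* they are ERSE-II. The ERSE-II match of *Dnajb11* lies after the gene's start, so no stretch of it is shown.
Hspa5, chr2:34771913-34772063, plus strand: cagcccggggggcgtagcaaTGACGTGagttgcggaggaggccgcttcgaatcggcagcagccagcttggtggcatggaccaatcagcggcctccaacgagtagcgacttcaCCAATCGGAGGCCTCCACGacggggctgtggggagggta
Creld2, chr15:88819499-88819559, plus strand: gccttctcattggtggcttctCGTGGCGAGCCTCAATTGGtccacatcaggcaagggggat
Calr, chr8:84847054-84847114, minus strand: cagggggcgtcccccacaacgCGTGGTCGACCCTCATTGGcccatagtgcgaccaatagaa
Pdia6, chr12:17266470-17266530, plus strand: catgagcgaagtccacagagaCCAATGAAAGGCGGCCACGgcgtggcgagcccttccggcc
Syvn1, chr19:6046511-6046571, plus strand: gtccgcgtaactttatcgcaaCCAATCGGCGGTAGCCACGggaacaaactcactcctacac
Herpud1, chr8:94386352-94386412, plus strand: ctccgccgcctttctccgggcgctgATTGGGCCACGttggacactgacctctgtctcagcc

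The 35 genes covered a wide range of levels. On the FPKM scale, which divides by transcript length, the median over the 27 libraries was 589.7 for *P4hb*, the disulfide isomerase that is also a subunit of prolyl hydroxylase and of the lipoprotein transfer protein, 268 for *Hspa5* (BiP, the central ER chaperone), 260.5 for *Calr* and 223 for *Hsp90b1*. *Herpud1* of the degradation branch followed at 161 FPKM. The sensors lay lower, with 72.7 for *Xbp1*, 11.1 for *Atf6* and 7.85 for *Ern1*. The lowest were *Atf3*, *Derl3* and *Asns*, at 1.98, 1.83 and 1.81 FPKM. The genes also differed in how far they ranged between mice. *Atf6* spanned 68.1 to 102 CPM, a 1.501-fold range. *Sdf2l1*, a partner of BiP, spanned 2.34 to 35.1 CPM, which is 15.004-fold. *Asns* (asparagine synthetase) ranged from 0.110 to 20.6 CPM. KO Res females had the lowest mean of the 9 conditions for 13 of the 15 chaperones, and WT WDA males the highest for 14 of the 15. For the 10 genes of the PERK/ATF4 branch the lowest means were spread over 6 conditions and the highest over 5.

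**Figure D1:**
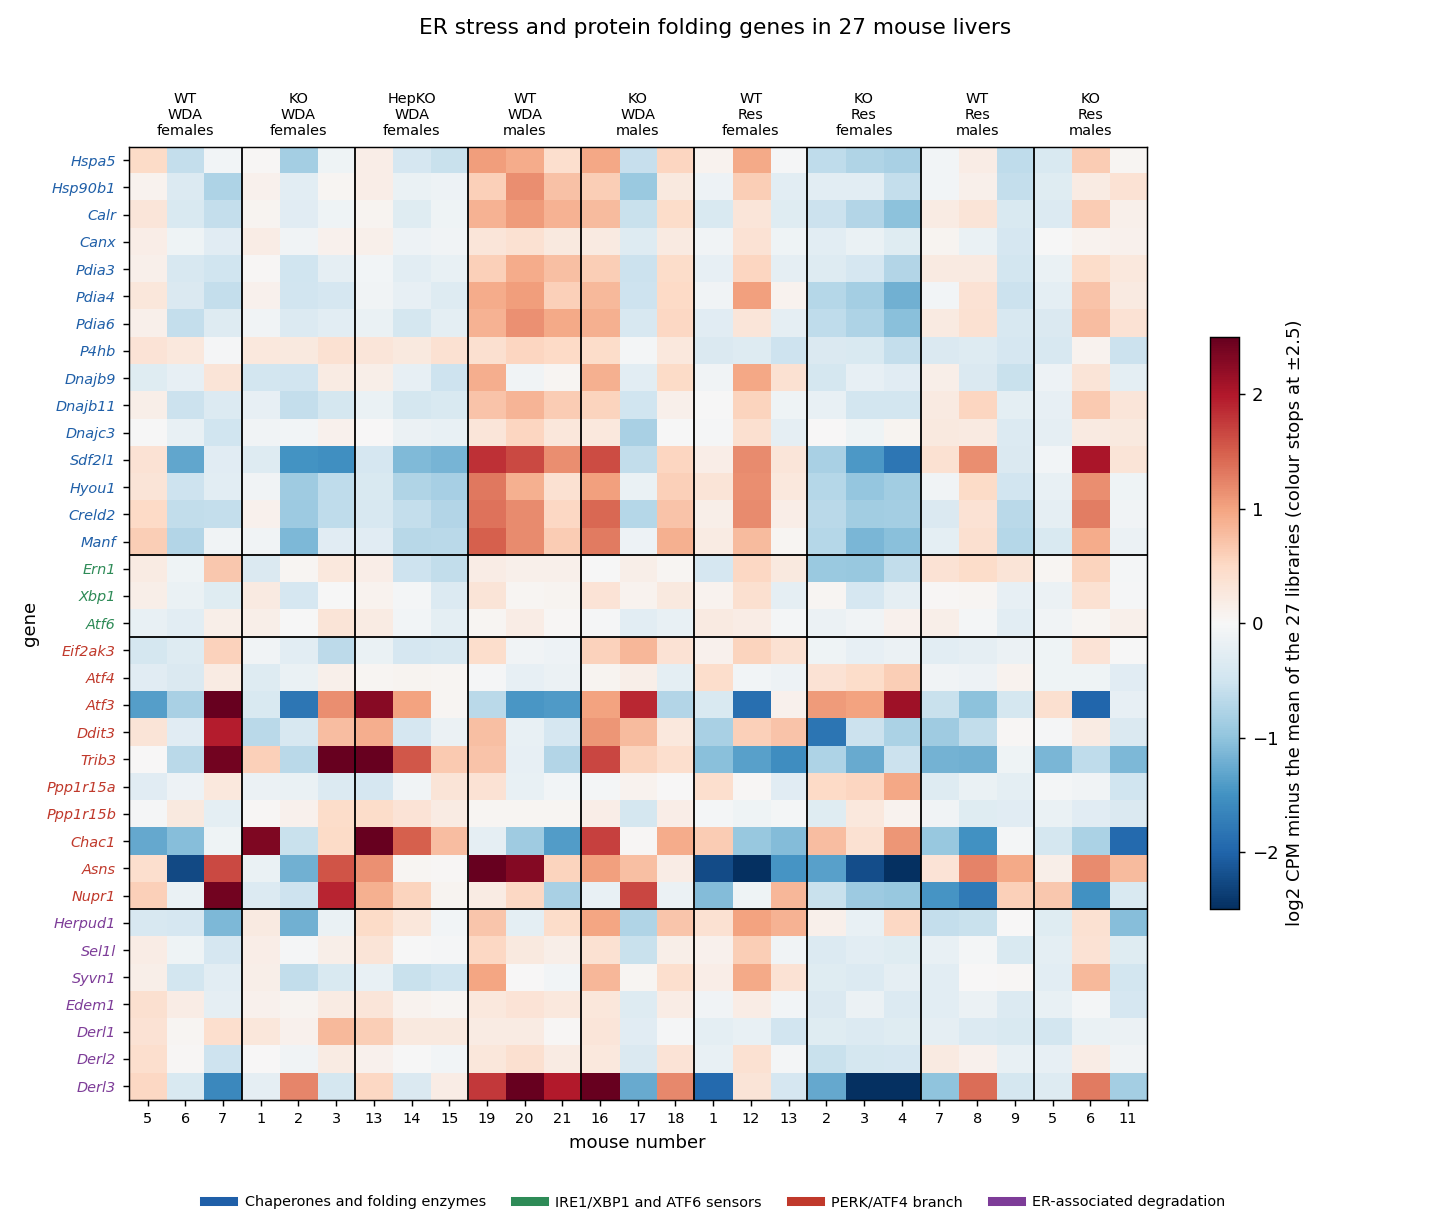
Heat map of the 35 genes (rows, by branch) in the 27 libraries (columns, by condition). Colour is log2 CPM minus the mean of that gene over all 27 libraries. By condition mean, 14 of the 15 chaperone rows are highest in WT WDA males and 13 are lowest in KO Res females, and the PERK/ATF4 rows follow another pattern.

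Within a condition, the chaperones moved together from mouse to mouse. After the mean of each condition was removed, Pearson's r over the 27 libraries had a median of 0.838 over the 105 pairs of chaperones, and all 105 were above 0. Between chaperones and degradation genes the median r was 0.650, with 105 of 105 pairs above 0. Between chaperones and the PERK/ATF4 branch it was -0.0273, with 67 of 150 above 0, and within the PERK/ATF4 branch it was 0.342. These values are a description, since the genes of a library share its depth and its scaling. The mice thus differed widely inside a condition. The mean log2 CPM of the 15 chaperones, relative to its mean over all libraries, was 0.83, -0.47 and 0.44 in the 3 KO WDA males, of which mouse 17 was the low one, and 0.081, -0.24 and 0.68 in the KO Res males. The 3 KO Res females were close to each other and low, at -0.48, -0.64 and -0.77, and WT Res females were at -0.050, 0.67 and -0.049, where mouse 12 was the high one. Since chaperone and degradation genes moved together, the counts of them that share a sign below are not independent observations.

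The first comparison asks whether loss of *Kdm5b* at the end of alcohol feeding goes with a change of these genes during resolution. In females, the chaperones and the degradation genes were lower in KO than in WT, the PERK/ATF4 genes were divided, and no gene passed the test. The quasi-likelihood test of edgeR, adjusted over all genes by the method of Benjamini and Hochberg, called 0 of the 34 genes tested (*Asns* was too low to be tested), as it called 0% of 12577 genes. At an unadjusted p under 0.05, 19 of the 34 were lower and 2 higher, where 11.7% and 7.52% of all genes tested were. The fold change was below 0 for 28 of 34 genes, against 52.3% of all genes, and the median log2 fold change was -0.55, against -0.018 over all genes tested. KO and WT mice did not overlap for 18 lower and 2 higher genes, against 14% and 11.6% of all genes. DESeq2's Wald test called 11 lower and 1 higher, against 3.20% and 1.85% of all genes.

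All 15 chaperones and folding enzymes had a lower mean in KO Res females (median log2 fold change -0.77), and 11 of them reached an unadjusted p under 0.05. *Hspa5* was at 637, 1163 and 591 CPM in the WT mice 1, 12 and 13, and at 387, 354 and 343 in the KO mice 2, 3 and 4. The KO values lay close together and below every WT value, and the log2 fold change was -1.15 ± 0.26 (SE; adjusted p = 0.109). *Hyou1*, which recharges BiP with nucleotide, was at 115, 206 and 110.1 CPM in WT and 56.1, 46.8 and 49.8 in KO, a log2 fold change of -1.504 ± 0.24 (adjusted p = 0.0794). *Manf*, a small ER protein that can be secreted, was at 65.7, 98.5 and 58.8 CPM in WT and 34.6, 25.6 and 27.6 in KO (-1.35 ± 0.21, adjusted p = 0.0794). *Sdf2l1* had the most negative value of the branch, with 9.53, 19.3 and 10.5 CPM in WT and 4.79, 3.04 and 2.34 in KO (-1.96 ± 0.35, adjusted p = 0.0895). *Hyou1* lies at chr9:44379490-44392369, *Manf* at chr9:106888753-106891938 and *Sdf2l1* at chr16:17130138-17132383 of GRCm38.p6. In each of these 4 genes WT mouse 12 had the highest value, and the other two WT mice were also above all KO mice.

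Among the disulfide isomerases the values were graded. *Pdia4* was at 134, 288 and 151 CPM in WT and 87.2, 79.1 and 62.2 in KO, a log2 fold change of -1.34 ± 0.29 (adjusted p = 0.105). *Pdia6* was at 99.5, 151 and 104 CPM in WT and 78.3, 71.04 and 59.1 in KO (-0.77 ± 0.19, adjusted p = 0.118). Both were lower in every KO mouse than in every WT mouse, and in both KO mouse 4 was the lowest. *Pdia3*, which works with the lectin chaperones, had -0.57 ± 0.23. *P4hb*, the most abundant of them, was at 1043, 1080.3 and 941 in WT and 1041, 1035 and 886 in KO (-0.060 ± 0.14), and its groups overlapped. *Creld2*, an ER protein known to rise in ER stress and whose promoter holds an ERSE, was at 21.6, 44.5 and 22.1 CPM in WT and 12.2, 10.6 and 10.9 in KO (-1.40 ± 0.28, adjusted p = 0.101), and its 3 KO mice were nearly equal. The lectin chaperones *Calr* and *Canx* had -0.68 ± 0.22 and -0.33 ± 0.16. The BiP partners *Dnajb9* and *Dnajb11* had -0.81 ± 0.25 and -0.53 ± 0.19, whereas *Dnajc3* had -0.091 ± 0.17 and *Hsp90b1* -0.51 ± 0.24, both with overlapping groups. The 11 genes tested with an ERSE or ERSE-II in their window had a median log2 fold change of -0.68, and the 8 chaperone and degradation genes whose window lacked both had -0.56. The ranges overlapped, from -2.06 to -0.091 in the first set and from -1.96 to -0.060 (*P4hb*) in the second.

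**Figure D2:**
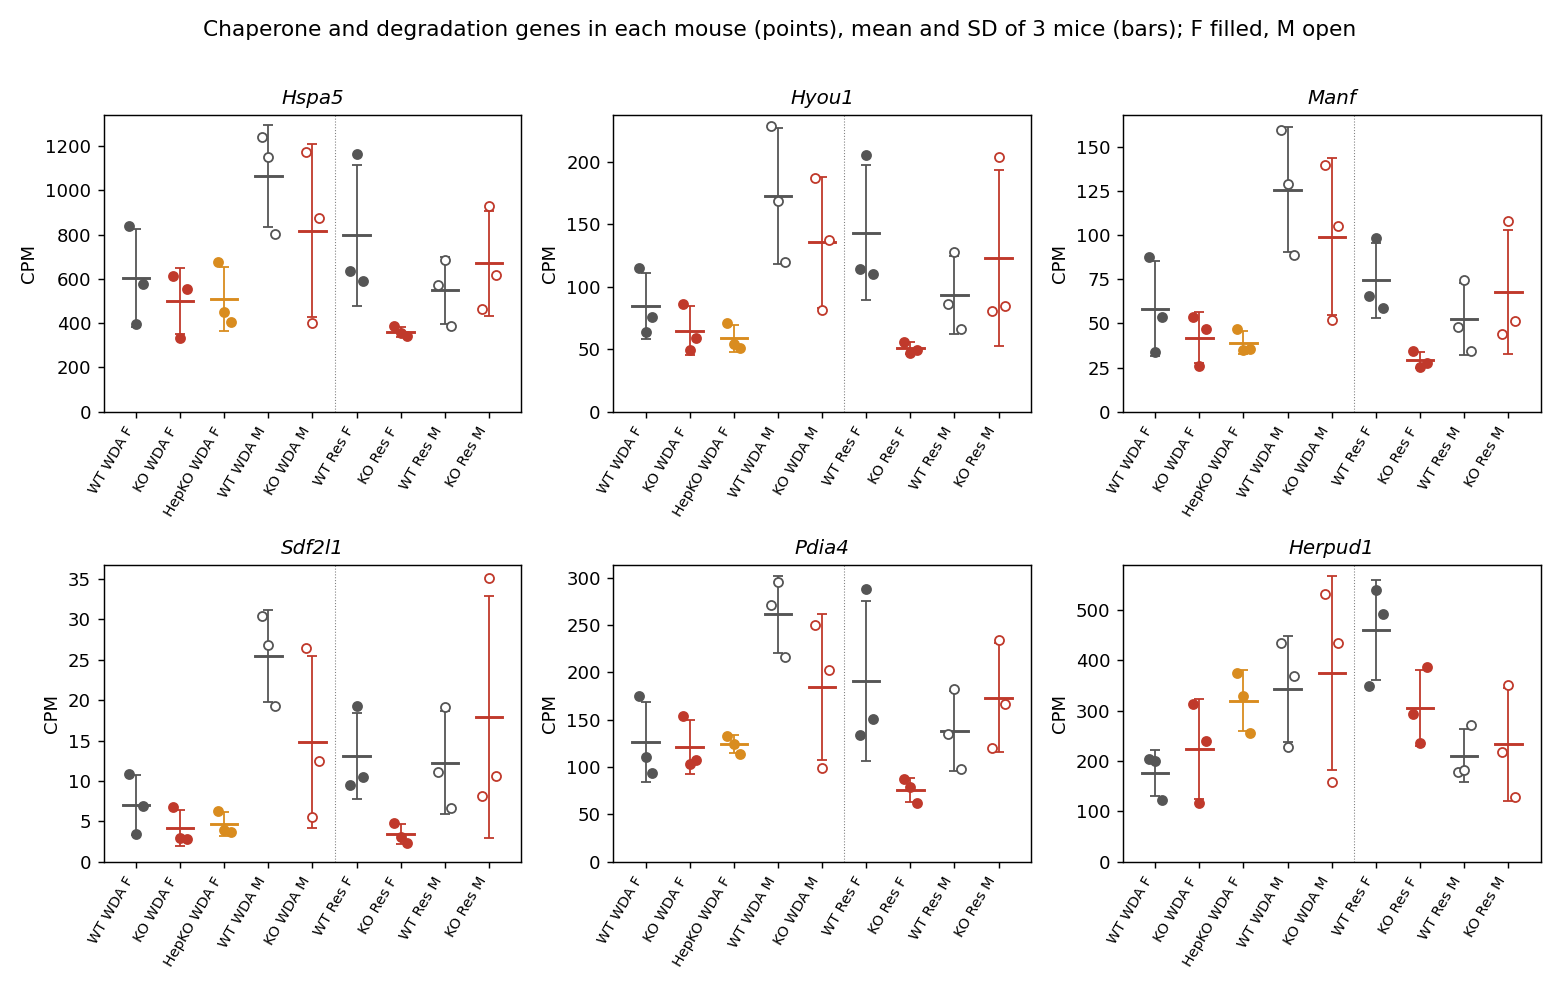
Levels of 6 chaperone and degradation genes in each mouse. The vertical axis is CPM, points are mice, and bars are the mean ± SD of the 3 mice of a condition. In the Res females every KO point lies below every WT point for all genes shown but Herpud1, while the KO and WT points of Res males overlap.

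All 3 sensors had lower means in KO Res females. *Ern1* was at 34.8, 66.6 and 54.5 CPM in WT and 24.1, 24.004 and 30.1 in KO, without overlap (-1.01 ± 0.23, adjusted p = 0.109). *Xbp1* had -0.30 ± 0.19 and *Atf6* -0.18 ± 0.12, with overlapping groups. Counts per gene cannot tell the spliced from the unspliced *Xbp1* messenger, so the activity of IRE1 was not measured. All 7 degradation genes had lower means as well (median -0.56), 5 of them at an unadjusted p under 0.05. *Syvn1*, the ubiquitin ligase HRD1, was at 75.6, 129 and 86.1 CPM in WT and 54.7, 52.8 and 57.2 in KO (-0.83 ± 0.20, adjusted p = 0.111). Its partner *Sel1l* had -0.56 ± 0.18, and *Herpud1*, which is recruited to the same complex, -0.60 ± 0.23. *Derl2* had -0.55 ± 0.16 and *Derl1* -0.025 ± 0.12. *Derl3* was near the limit of detection, at 0.508, 2.87 and 1.65 CPM in WT and 0.866, 0.172 and 0.167 in KO.

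The PERK/ATF4 branch did not move as one. Of 9 genes tested, 6 had a higher and 3 a lower mean in KO Res females (median 0.37). *Atf3*, a stress-induced transcription factor, was at 3.33, 1.10 and 4.72 CPM in WT and 9.30, 8.84 and 19.2 in KO, where every KO mouse was above every WT mouse (2.002 ± 0.50, adjusted p = 0.118). *Ppp1r15a* (GADD34, which restores translation) was at 17.3, 13.1 and 10.5 in WT and 18.1, 18.7 and 25.1 in KO (0.59 ± 0.20), again without overlap. *Atf4* itself had 0.37 ± 0.17, and *Chac1*, which degrades glutathione, 1.05 ± 0.47, both with overlapping groups. In the other direction, *Eif2ak3* (PERK) was at 16.9, 23.1 and 20.4 in WT and 14.7, 13.7 and 14.2 in KO (-0.52 ± 0.14), and *Ddit3* (CHOP) at 2.82, 7.56 and 8.22 in WT and 1.33, 3.39 and 2.84 in KO (-1.32 ± 0.47). The fold changes of *Atf4* and of *Ddit3* thus had opposite signs, and neither passed the test.

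Single mice carried weight in this comparison. Without WT mouse 1 edgeR called 14 of the genes and 6.65% of all genes tested, and without any other mouse 0 of the module. The median log2 fold change was -0.31 without WT mouse 12, -0.62 without WT mouse 13 and -0.62 without WT mouse 1. The summed level of the 6 hepatocyte markers, mostly *Alb*, was 141946 to 169206 CPM in KO and 99769.7 to 155362 in WT, where mouse 1 was the highest. The 6 cholangiocyte markers summed to 16.3 to 19.1 CPM in KO and 23.8 to 63.4 in WT, with *Krt19*, *Krt7* or *Cftr* at 0 in some libraries, and the 7 stellate or fibroblast markers to 282 to 345 in KO and 268 to 520.0 in WT. The other WT mice, 1 and 12, also lay above all 3 KO mice in summed cholangiocyte markers, at 23.8 and 24.1 CPM. The part of these cells in the result was not tested. Scaling by library totals moved the median of all genes to -0.19 and that of these genes to -0.72.

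**Figure D3:**
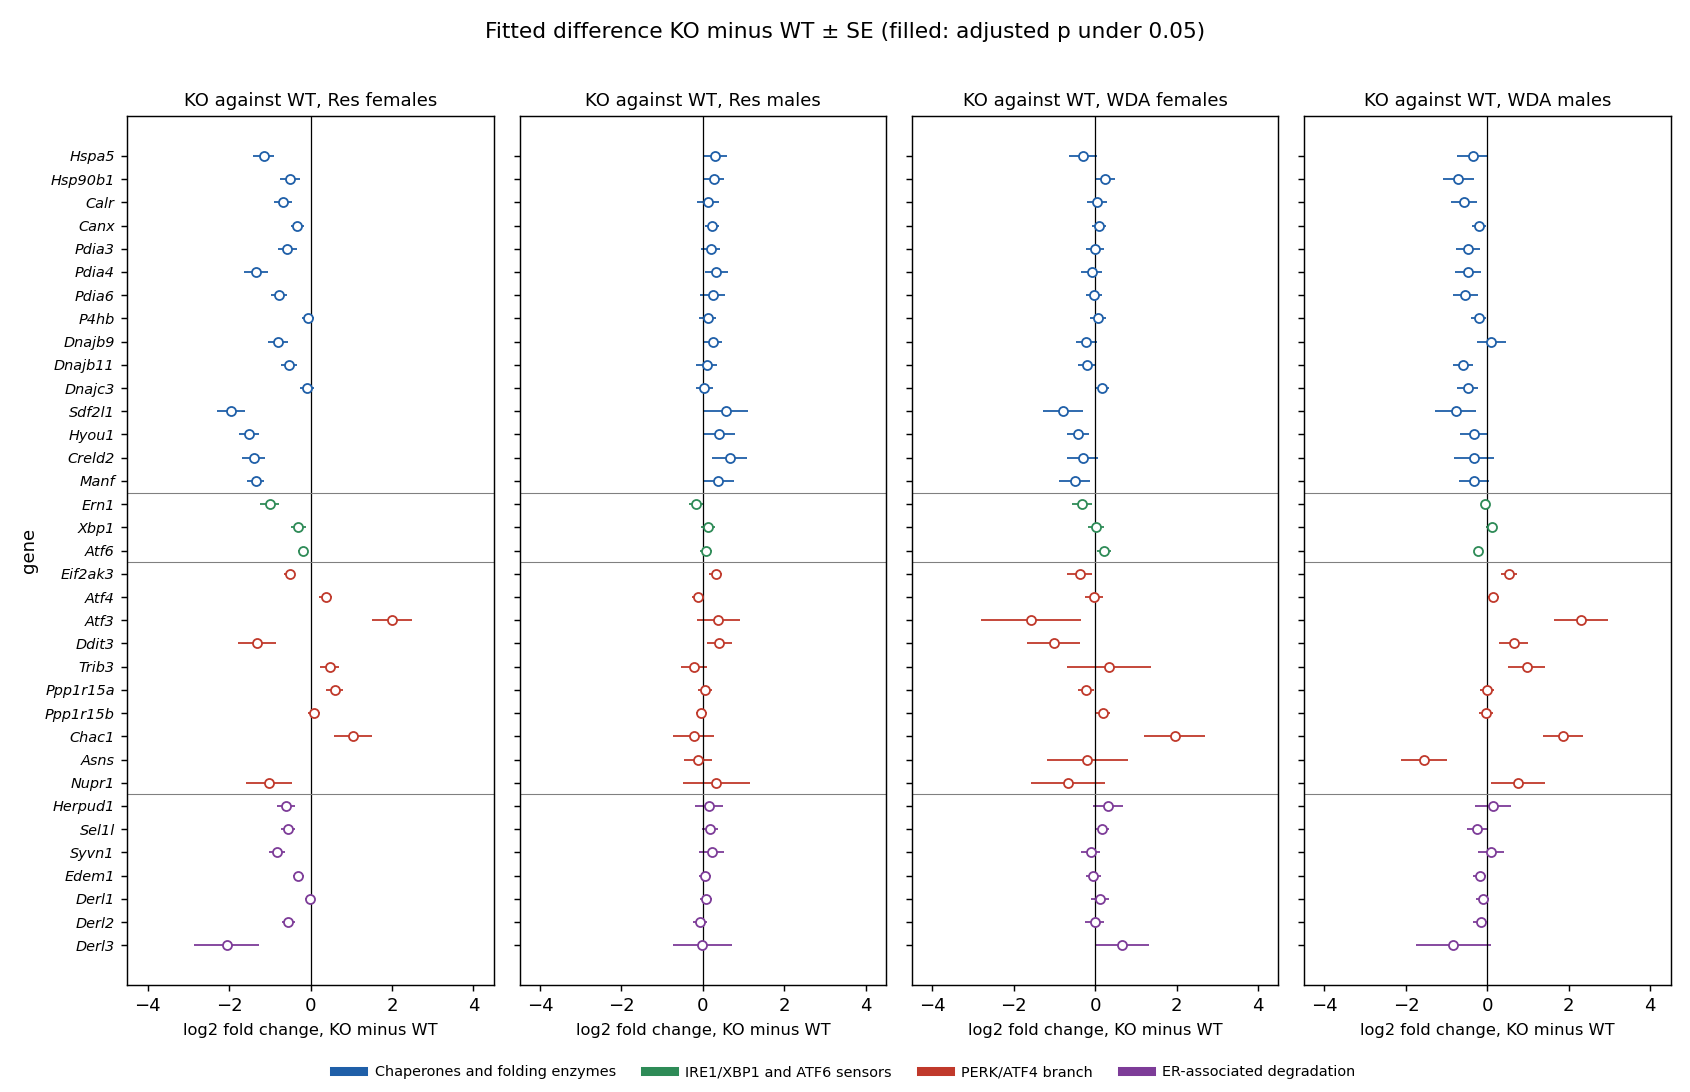
Log2 fold change of KO against WT for the 35 genes, by branch, in Res females, Res males, WDA females and WDA males. Bars are ± 1 SE, filled points would mark an adjusted p under 0.05, and no point is filled. In Res females all chaperone points lie below 0, in Res males all lie above 0 (6 of 15 without KO mouse 6).

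In Res males the same comparison gave small values, whose sign turned on 1 mouse. edgeR called 0 of 35 genes (background 0%), 0 reached an unadjusted p under 0.05 (background 0.998% higher and 0.452% lower), and DESeq2 called 0 (background 0.0555% higher and 0% lower). The median log2 fold change was 0.15 over all genes of the module and 0.25 over the chaperones, all 15 of which had a higher mean in KO (as had 52.4% of all genes). *Hspa5* was at 573, 687 and 386 CPM in WT males 7, 8 and 9 and 617, 464 and 931 in KO males 11, 5 and 6 (0.30 ± 0.30). *Sdf2l1* was at 11.1, 19.2 and 6.59 in WT and 10.6, 8.08 and 35.1 in KO, where KO mouse 6 alone was above the WT mice. *Ern1* was at 59.8, 63.5 and 58.1 in WT and 44.9, 48.2 and 68.2 in KO. The groups overlapped for each of these genes. Without KO mouse 6 the median was -0.053 over the module and -0.037 over the chaperones, of which 6 had a higher and 9 a lower mean in KO. Both males with high cholangiocyte markers, WT mouse 9 and KO mouse 5, had the lowest chaperone level of their condition. With both left out, the median of the genes was 0.16. Over both sexes, with sex as a term, edgeR called 0 of 35 (background 0%) and DESeq2 0 (background 0.0455% higher and 0% lower). At an unadjusted p under 0.05 *Ern1* and *Derl2* were lower and *Atf3* higher (background 4.77% lower and 3.08% higher), and the median was -0.19.

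The difference between the sexes was itself tested, as the KO effect in Res females minus that in Res males. It was below 0 for all 15 chaperones (median -0.99) and all 7 degradation genes (median -0.71), and its median over the 35 genes was -0.73, against -0.039 over all genes, of which 53.8% were below 0. edgeR called 0 of 35 genes (background 0%), 14 were lower and 1 higher at an unadjusted p under 0.05 (background 7.02% and 4.45%), and DESeq2 (background 0.455% lower and 0.190% higher) called *Hyou1*, *Pdia4* and *Creld2*, at adjusted p of 0.0331, 0.0355 and 0.0448. The edgeR estimates were -1.89 ± 0.51 for *Hyou1*, -1.65 ± 0.45 for *Pdia4* and -2.04 ± 0.58 for *Creld2*, and -2.49 ± 0.78 for *Sdf2l1*, with adjusted p of 0.266, 0.270, 0.270 and 0.285. The next genes by unadjusted p were *Manf* (-1.72 ± 0.49), *Hspa5* (-1.43 ± 0.43), *Dnajb9* (-1.04 ± 0.36), *Ddit3* (-1.70 ± 0.60) and *Ern1* (-0.83 ± 0.31), none of them called. Without WT Res females mouse 1, edgeR called 1 gene, *Eif2ak3*, and 1.80% of all genes (-0.81 ± 0.21 with all mice, adjusted p = 0.265). The female and male comparisons share no mice, but this test uses the same females as the one above.

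In mice still on WDA, neither virus with Cre gave a call by edgeR. In females, KO against WT had a median of -0.026 over the 35 genes and -0.086 over the chaperones. edgeR and DESeq2 called 0 (background 0% by edgeR, 0.0403% higher and 0.0242% lower by DESeq2), and 1 gene reached an unadjusted p under 0.05 (background 1.40% higher and 1.70% lower). This was *Chac1*, at 1.43, 1.67 and 3.35 CPM in WT mice 5, 6 and 7 and 18.6, 2.43 and 5.12 in KO mice 1, 2 and 3 (1.96 ± 0.75, adjusted p = 0.978). The highest of these values belongs to KO mouse 1, the library whose *Kdm5b* lies in the WT range. *Hspa5* was at 839, 397 and 575 in WT and 615, 333 and 554 in KO, with wide overlap. With the hepatocyte-directed virus, *Chac1* was at 22.6, 10.4 and 6.25 CPM in HepKO mice 13, 14 and 15, above all WT mice (2.56 ± 0.56, adjusted p = 0.235). *Herpud1* was at 376, 329 and 256 in HepKO and 204, 201 and 124 in WT (0.85 ± 0.24, adjusted p = 0.331). These were the 2 genes at an unadjusted p under 0.05 (0 were lower; background 4.81% higher and 5.25% lower) and without overlap (background 10.1%), and DESeq2 called both (adjusted p = 0.000705 and 0.0497), as it did 0.975% of all genes higher and 0.878% lower, whereas edgeR called 0 (background 0%). The KO and the HepKO comparison share the WT mice. HepKO against KO directly gave 0 calls by edgeR or DESeq2, 0 genes at an unadjusted p under 0.05 (background 3.06% higher and 2.68% lower), and a median of -0.0041 (background 0.0162% by edgeR, 0.227% higher and 0.0810% lower by DESeq2). WT WDA female mouse 7 held 36.5 CPM of *Atf3* and 83.96 of *Trib3*, the highest of its condition. Without it edgeR called 1 gene in HepKO against WT, *Chac1*, and 2.80% of all genes. It also had the highest sums of its condition for the cholangiocyte, stellate or fibroblast and macrophage markers (macrophage 187 to 682 CPM over the 3 mice), and their part in the result was not tested.

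In WDA males, chaperones had lower and PERK/ATF4 genes mostly higher means in KO, and no gene passed the test by edgeR or DESeq2 (background 0% by edgeR, 0.113% higher and 0.0242% lower by DESeq2). The median was -0.48 over the chaperones, 14 of 15 of them lower (against 50.5% of all genes), and 0.59 over the PERK/ATF4 branch. At an unadjusted p under 0.05, 3 genes were higher and 2 lower (background 5.56% and 2.15%). *Chac1* was at 3.07, 1.89 and 1.31 CPM in WT mice 19, 20 and 21 and 12.1, 3.69 and 6.96 in KO mice 16, 17 and 18, without overlap (1.86 ± 0.50, adjusted p = 0.588). *Dnajb11*, the one chaperone without overlap at an unadjusted p under 0.05, was at 102, 112 and 96.9 in WT and 92.2, 44.2 and 67.8 in KO (-0.59 ± 0.24, adjusted p = 0.588). *Atf3* was at 2.70, 1.53 and 1.56 in WT and 8.85, 16.5 and 2.58 in KO (2.30 ± 0.65). *Asns* had the opposite sign, with 20.6, 13.003 and 3.81 in WT and 5.30, 4.36 and 2.94 in KO (-1.55 ± 0.57). *Hspa5* was at 1239.8, 1149 and 804 in WT and 1175, 400.3 and 875 in KO, where mouse 17 was the low one. Mouse 17 also had the highest sums of the cholangiocyte and stellate or fibroblast markers of all 27 libraries, and their part in the result was not tested. Without mouse 17, the median of the chaperones was -0.19, with 13 of 15 lower.

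**Figure D4:**
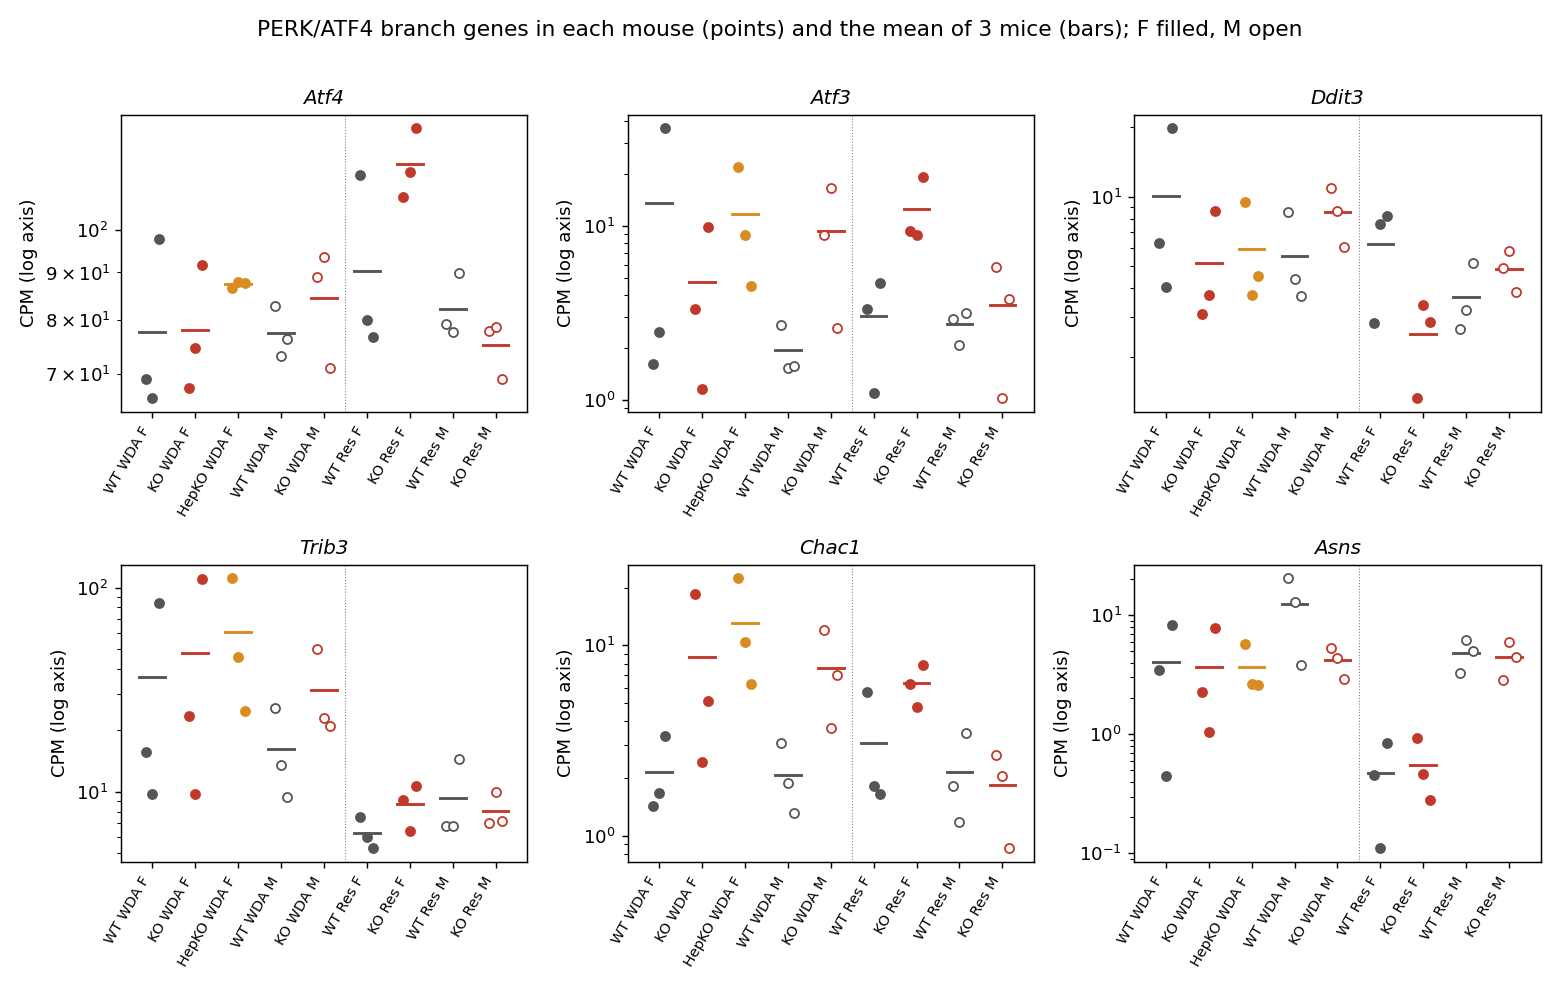
Levels of 6 genes of the PERK/ATF4 branch in each mouse. The vertical axis is CPM on a log scale, points are mice, and bars mark the mean of the 3 mice of a condition. Chac1 and Trib3 spread widely among WDA mice, and Asns is lower in all Res females than in all Res males.

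Resolution was then compared with WDA within each virus and sex. These comparisons also compare the experiments, chow with the Western diet, and 16 with 8 weeks of WDA. They also compare virus given at cessation with virus given at the start of feeding. In WT males, all 15 chaperones and all 7 degradation genes had a lower mean in Res, against 47.0% of all genes. Of these, 9 chaperones and 3 degradation genes were called. edgeR called 12 of 35 genes lower and 0 higher, where 5.98% and 4.99% of all genes tested were. They were the chaperones and isomerases *P4hb*, *Calr*, *Hsp90b1*, *Pdia6*, *Manf*, *Pdia4*, *Creld2*, *Hspa5* and *Pdia3*, and *Edem1*, *Derl1* and *Sel1l* of the degradation branch. *P4hb* was at 1785, 1956 and 1895 CPM in WDA and 1041, 1072 and 1006 in Res, a 1.79-fold lower level (-0.84 ± 0.0997, adjusted p = 0.00515). The mice of each stage lay close together and far from the other stage. *Hspa5* was at 1239.8, 1149 and 804 CPM in WDA and 573, 687 and 386 in Res (-0.95 ± 0.23, adjusted p = 0.0367). *Hsp90b1*, the ER form of HSP90, was at 871, 1284 and 960.0 CPM in WDA and 548, 624 and 382 in Res (-0.99 ± 0.20, adjusted p = 0.0224), and *Calr*, a calcium-binding lectin, at 807, 928 and 814 CPM in WDA and 510.1, 553 and 339.6 in Res (-0.85 ± 0.17, adjusted p = 0.0221). For all 4 genes no Res mouse reached the lowest WDA mouse. *Manf* was at 159.5, 129 and 88.6 CPM in WDA and 47.9, 74.5 and 34.6 in Res (-1.26 ± 0.29, adjusted p = 0.0325), *Creld2* at 50.5, 44.6 and 28.1 CPM in WDA and 15.1, 25.3 and 12.3 in Res (-1.22 ± 0.29, adjusted p = 0.0356). These showed the same order of mice as *Hspa5*, with mouse 9 the lowest and mouse 8 the highest of the Res males. The isomerases *Pdia4* and *Pdia6* had -0.91 ± 0.21 and -0.88 ± 0.18 (adjusted p = 0.0331 and 0.0226).

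In the degradation branch of WT males the changes were smaller and tight. *Edem1*, which hands misfolded glycoproteins to degradation, was at 174, 184 and 174 CPM in WDA and 121, 132 and 114 in Res (-0.52 ± 0.085, adjusted p = 0.0124), and *Derl1*, part of the channel by which proteins leave the ER, at 175, 176 and 156 CPM in WDA and 129, 119 and 116 in Res (-0.46 ± 0.091, adjusted p = 0.0221). The sensors and the PERK/ATF4 branch gave 0 calls. *Ern1* was the one gene of the module above 0 at an unadjusted p under 0.05 (background 15.3%), at 52.7, 50.9 and 50.4 CPM in WDA and 59.8, 63.5 and 58.1 in Res (0.25 ± 0.080, adjusted p = 0.0780). The summed markers of cholangiocytes (22.04 to 27.7 CPM in WDA, 28.9 to 53.1 in Res), T or NK cells (1.19 to 2.503 and 3.96 to 5.93), neutrophils (1.25 to 2.08 and 3.53 to 8.01) and B or plasma cells (1.98 to 2.69 and 3.86 to 6.01) did not overlap between the stages either. Of these lists *Krt19*, *Krt7*, *Cftr*, *Ly6g* and *Tnfrsf17* were at 0 in some of the 27 libraries, and the part of these cells in the result was not tested. The calls depended on single mice. Leaving out WT WDA male 19, 20 or 21 left 2, 1 or 1, and leaving out WT Res male 7 left 6, where between 0.835% and 8.85% of all genes were called. *P4hb* was among them each time, and so it was with the spread shared by all 27 libraries, where it was the 1 gene called. Without WT Res male 9, which has high cholangiocyte markers, 13 genes were called, as were 13.5% of all genes. Scaling by library totals, which moves the median of all genes to 0.16, left 4, namely *P4hb*, *Calr*, *Pdia6* and *Hsp90b1*.

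In KO females edgeR called 12 genes lower and 2 higher in Res than in WDA, against 10.2% of all genes lower and 10.2% higher. All branches held genes called lower, and the PERK/ATF4 branch also held both called higher. Called lower were *P4hb*, *Pdia6*, *Calr* and *Pdia4* of the chaperones, *Ern1* of the sensors, and *Derl1*, *Derl2*, *Derl3*, *Sel1l* and *Edem1* of the degradation branch. In the PERK/ATF4 branch *Trib3* and *Asns* were called lower, and *Atf4* and *Ppp1r15a* higher. *P4hb* was at 1617, 1595 and 1749 CPM in WDA and 1041, 1035 and 886 in Res (-0.72 ± 0.12, adjusted p = 0.00438), *Ern1* at 36.1, 47.9 and 55.9 CPM in WDA and 24.1, 24.004 and 30.1 in Res (-0.82 ± 0.17, adjusted p = 0.0109). *Derl1* was at 186, 165 and 267 CPM in WDA and 123, 120.4 and 124 in Res (-0.73 ± 0.16, adjusted p = 0.0154), and *Derl2* had -0.49 ± 0.11 (adjusted p = 0.0156), *Sel1l* -0.38 ± 0.10 and *Pdia6* -0.56 ± 0.13 (adjusted p = 0.0279 and 0.0171). In all 6 genes every Res mouse was below every WDA mouse. *Derl3*, the least abundant derlin, was at 1.93, 5.40 and 1.63 CPM in WDA and 0.866, 0.172 and 0.167 in Res (-2.87 ± 0.66, adjusted p = 0.0164). The Res libraries held 15, 3 and 3 counts of *Derl3*, so it passed the filter through the WDA mice. Of the folding genes, *Calr* was at 463, 365 and 409.6 CPM in WDA and 304, 266 and 217 in Res (-0.63 ± 0.15, adjusted p = 0.0171), but *Hspa5* at 615, 333 and 554 CPM in WDA and 387, 354 and 343 in Res, with overlap (-0.45 ± 0.20, adjusted p = 0.134). BiP thus did not pass the test here, whereas the isomerases *P4hb*, *Pdia4* and *Pdia6*, the lectin *Calr* and 5 of 7 degradation genes did.

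In the PERK/ATF4 branch of KO females, *Atf4* was at 67.7, 74.8 and 91.6 CPM in WDA and 109, 115 and 129 in Res (0.61 ± 0.13, adjusted p = 0.0129), and *Ppp1r15a* at 11.6, 11.4 and 10.01 CPM in WDA and 18.1, 18.7 and 25.1 in Res (0.93 ± 0.16, adjusted p = 0.00472), both without overlap. *Trib3*, a pseudokinase induced by ATF4 and CHOP, was at 23.6, 9.76 and 111 CPM in WDA and 9.07, 6.43 and 10.7 in Res (-2.43 ± 0.72, adjusted p = 0.0396), and DESeq2 gave it an adjusted p of 0.0544. The high WDA value was that of mouse 3, and mouse 2 lay among the Res mice. Without mouse 3 the value was -0.91 (adjusted p = 0.0969), and the call was also lost without any 1 of the KO Res females. *Asns* was at 2.28, 1.05 and 7.80 CPM in WDA and 0.924, 0.459 and 0.279 in Res (-2.71 ± 0.74, adjusted p = 0.0302), and at -1.56 without mouse 3 (adjusted p = 0.0705). The Res libraries held 16, 8 and 5 counts of *Asns*, so it passed the filter through the WDA mice. Without KO Res female 2, 3 or 4 the calls of the module numbered 9, 9 and 3, where 10.6%, 12.9% and 8.14% of all genes were called. Without KO WDA female 1, whose *Kdm5b* lies in the WT range, 12 were called. The summed hepatocyte markers, mostly *Alb*, were 87551 to 107940.0 CPM in WDA and 141946 to 169206 in Res, without overlap. Those of macrophages, of which all 8 were detected in every library, were 234 to 337 in WDA and 345 to 497 in Res. The sums of stellate or fibroblast (237 to 276 and 282 to 345), neutrophil (1.27 to 5.44 and 6.26 to 19.98) and B or plasma cell markers (2.10 to 4.09 and 4.74 to 7.68) did not overlap either. Of these lists *Ly6g* and *Tnfrsf17* were at 0 in some of the 27 libraries. The part of all these cells in the result was not tested.

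In WT females edgeR called 0 of 35 genes (background 0%). At an unadjusted p under 0.05, 2 genes were higher and 4 lower (background 6.71% and 6.90%), and DESeq2 called 4, *Herpud1*, *P4hb*, *Trib3* and *Derl1* (background 1.66% higher and 1.55% lower). *Herpud1* was at 204, 201 and 124 CPM in WDA and 348, 539.9 and 491 in Res, without overlap (1.37 ± 0.28, adjusted p = 0.206; DESeq2 adjusted p = 0.000251). *P4hb* was again lower in every Res mouse, at 1699, 1613 and 1327 CPM in WDA and 1043, 1080.3 and 941 in Res (-0.61 ± 0.20, adjusted p = 0.287). *Derl1* was at 196, 157 and 205 CPM in WDA and 129, 133 and 109 in Res (-0.61 ± 0.18), *Syvn1* at 74.6, 48.7 and 56.4 CPM in WDA and 75.6, 129 and 86.1 in Res (0.68 ± 0.26) and *Trib3* at 15.7, 9.79 and 83.96 CPM in WDA and 7.56, 6.02 and 5.29 in Res (-2.57 ± 0.81), all 3 without overlap. The high WDA value of *Trib3* was that of mouse 7, and without that mouse its log2 fold change was -1.03. The other chaperones did not go with *P4hb*. Of 15, 14 had a higher mean in Res (as had 48.2% of all genes), with a median of 0.37. Without WT Res female 12 the median was 0.097, with 11 higher, and that of the module 0.036. With WT WDA female 7 and WT Res female 13 left out, the median of the 34 genes tested was 0.32, against 0.19 over 35 with all mice. In KO males edgeR also called 0 (background 0%), DESeq2 called *Trib3* and *Chac1* (background 0.314% lower and 0.306% higher), and 4 genes were lower at an unadjusted p under 0.05 (background 3.21%, and 3.22% higher), all in the PERK/ATF4 branch and all without overlap (background 5.37%). *Trib3* was at 50.2, 22.99 and 20.9 CPM in WDA and 7.17, 7.03 and 10.002 in Res (-1.97 ± 0.37, adjusted p = 0.343; DESeq2 adjusted p = 0.000114), and *Chac1* at 12.1, 3.69 and 6.96 CPM in WDA and 0.861, 2.65 and 2.05 in Res (-2.04 ± 0.54, adjusted p = 0.619; DESeq2 adjusted p = 0.0387). *Ddit3* was at 10.9, 8.67 and 6.06 CPM in WDA and 3.84, 4.87 and 5.78 in Res (-0.83 ± 0.28) and *Eif2ak3* at 23.3, 28.1 and 20.3 CPM in WDA and 15.7, 14.5 and 20.1 in Res (-0.52 ± 0.19). *Trib3* had -0.77 ± 0.42 in WT males, so that its mean was lower in Res than in WDA in all 4 comparisons of stage. It passed edgeR's test in KO females.

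**Figure D5:**
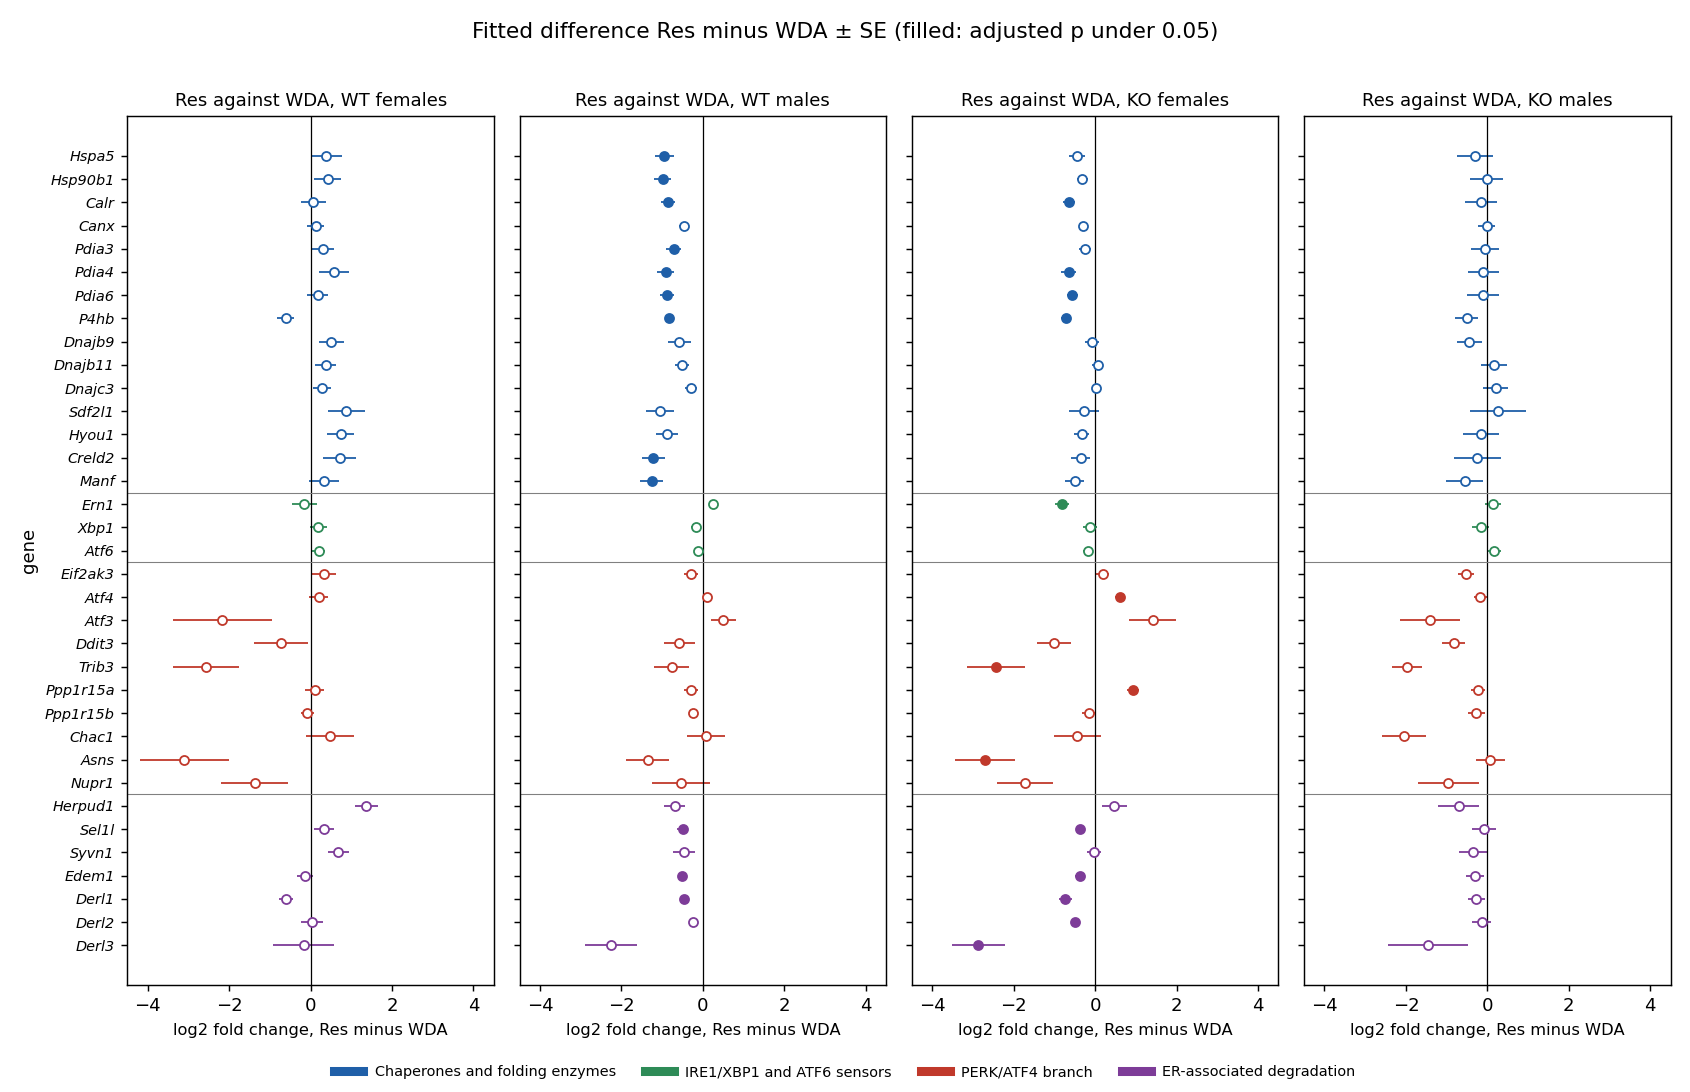
Log2 fold change of Res against WDA for the 35 genes, by branch, in WT females, WT males, KO females and KO males. Bars are ± 1 SE and filled points mark an adjusted p under 0.05. Filled chaperone points appear in WT males and KO females and lie below 0, whereas in WT females all chaperone points but P4hb lie above 0.

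Whether stage changed the module differently in WT females and WT males was tested directly, in a comparison added after the data had been seen. The change in females minus that in males was above 0 for all 15 chaperones (median 1.10) and had a median of 0.59 over the 35 genes, where 45.9% of all genes were above 0. At an unadjusted p under 0.05, 16 genes were higher and 0 lower (background 4.07% and 3.64%). edgeR called 0 (background 0.00760%), and DESeq2 (background 0.350% higher and 0.289% lower) called *Herpud1* (2.08 ± 0.41 by edgeR, adjusted p = 0.231; DESeq2 adjusted p = 0.000387). The next genes by unadjusted p, none of them called, were led by *Creld2* (1.95 ± 0.56), *Hsp90b1* (1.42 ± 0.42), *Hyou1* (1.63 ± 0.48), *Pdia4* (1.503 ± 0.46) and *Pdia6* (1.07 ± 0.34). The KO effect in Res females minus that in WDA females had a median of -0.53. It was below 0 for all 15 chaperones and all 7 degradation genes, against 47.6% of all genes. edgeR and DESeq2 called 0 (background 0% by edgeR, 0% higher and 0.00773% lower by DESeq2), and 5 genes were lower and 2 higher at an unadjusted p under 0.05 (background 3.72% and 2.49%). Those lower were *Pdia4* (-1.23 ± 0.43), *Hyou1* (-1.07 ± 0.40), *Pdia6* (-0.73 ± 0.29), *Sel1l* (-0.70 ± 0.26) and *Derl3* (-2.70 ± 1.14), and those higher *Ppp1r15a* (0.83 ± 0.29) and *Atf3* (3.58 ± 1.504). The value of *Atf3* draws on WT WDA females at 1.61, 2.45 and 36.5 CPM, of which mouse 7 was the high one. Both tests reuse the WT Res females of the comparisons above. The test of the KO effect by stage also sets virus given at cessation against virus given at the start of feeding.

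Males and females were compared at each stage over WT and KO mice, with the virus as a term. On WDA all differences called were towards males. edgeR called 4 of 35 genes higher and 0 lower (background 1.31% and 1.54%), namely *Sdf2l1*, *Pdia6*, *Hyou1* and *Dnajb11*, and all 15 chaperones had a higher mean in males, against 49.9% of all genes (median 0.77). *Sdf2l1* was at 30.4, 26.8 and 19.2 CPM in WT males against 10.9, 3.39 and 6.92 in WT females, and at 26.5, 5.53 and 12.4 in KO males against 6.72, 2.92 and 2.85 in KO females (1.85 ± 0.39, adjusted p = 0.0256). *Pdia6* had 0.96 ± 0.20 (adjusted p = 0.0291), *Hyou1* 1.06 ± 0.24 (adjusted p = 0.0361) and *Dnajb11* 0.75 ± 0.18 (adjusted p = 0.0443). KO male mouse 17 lay inside the range of the females for these 4 genes. Without it edgeR called 13, and without it and WT female mouse 7, the WDA libraries with high cholangiocyte markers, 15, along with 6.25% and 11.2% of all genes. The calls were lost when either of the other KO males, WT male 19 or 20, KO female 2 or 3, or WT female 6 was left out (0 calls each time), and 2, *Hyou1* and *Sdf2l1*, were left without WT male 21. Without WT female 7 there were 6, and without KO female 1 or WT female 5 there were 3, with *Hyou1* and *Sdf2l1* among them each time. After resolution the genes called lay in the PERK/ATF4 branch. *Asns* was at 3.29, 6.17 and 5.01 CPM in WT males against 0.451, 0.110 and 0.850 in WT females, and at 4.48, 2.84 and 5.96 in KO males against 0.924, 0.459 and 0.279 in KO females. All 6 males were above all 6 females, and *Asns* was 8.87-fold higher in males (3.15 ± 0.39, adjusted p = 0.000546). The Res females held only 2 to 18 counts of *Asns*. The gene passed the filter through the Res males, which held 46 to 104. *Ppp1r15a* was lower in males (-0.62 ± 0.15, adjusted p = 0.0463). These were the 1 gene called higher and 1 called lower (background 1.73% and 1.65%). The call of *Ppp1r15a* was lost without any 1 of the KO mice, and without WT female 1 or WT male 7 or 8, while *Asns* was called each time. With the 3 Res libraries of high cholangiocyte markers left out, 5 genes were called, *Asns*, *Chac1*, *Ppp1r15a*, *Pdia6* and *Atf4*, as were 6.72% of all genes. With all mice the chaperone median was 0.32, with 0 chaperones called.

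The wider ER machinery was read from 119 further genes in 5 lists, namely other sensors and regulators, protein entry and glycosylation, other folding enzymes, other degradation factors, and other ATF4 and CHOP targets. In KO against WT Res females, 115 were tested. At an unadjusted p under 0.05, 13 were lower and 5 higher, against 11.7% and 7.52% of all genes, so that these lists were not above the background. Their median was -0.044, against -0.55 for the 35 genes. *Creb3l2*, a membrane-bound transcription factor of secretory cells, had -1.11 ± 0.22 (adjusted p = 0.0973). In WT males, all 24 genes of protein entry and N-glycosylation had a lower mean in Res than in WDA (median -0.32), against 47.0% of all genes, and 5 were called lower, against 5.98%. In KO females 4 of 24 were called lower and 0 higher, against 10.2% and 10.2% of all genes. In WT females and KO males 0 were called, with 19 and 22 of 24 lower, against 51.8% and 51.9% of all genes. Of the other ATF4 and CHOP targets, 4 were called higher and 3 lower of 29 in KO females, and 3 higher and 1 lower of 30 in WT males (background 4.99% and 5.98%).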

How the data were processed

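RNA of 27 whole mouse livers was analysed, 3 mice in each of 9 conditions, grouped by the labels. Per the labels, reads were processed with HISAT and Bowtie2 against GRCm38.p6. The authors deposited 4 tables that hold an expected count and an FPKM value for each gene and library. The counting tool and its use of strand are not given in the sources used here, so reads of overlapping or antisense genes cannot be told apart. From 7.34% to 8.09% of the expected counts of a library were not whole and were rounded. A gene missing from a table was set to 0.

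Tables were joined by gene ID, the 35 genes were taken by symbol, and counts were tested with edgeR 4.0.16 in R 4.3.3 (filterByExpr with a minimum count of 10, TMM factors, quasi-likelihood F-test), separately for each comparison, with Benjamini-Hochberg adjustment over all genes tested and a threshold of 0.05. Fold changes are edgeR's estimates, and SE is the standard error of the log2 fold change. No FPKM value entered edgeR or DESeq2. For 2 groups of 3 mice, the smallest p that exact permutation allows is 0.1. Alternatives were DESeq2 1.42.0 (Wald test), other scalings and filters, a spread shared by all 27 libraries, limma 3.58.1 on log2(FPKM + 1), and leaving out each mouse. The scripts were tested on simulated data. Libraries with cholangiocyte markers above 50 CPM were left out in an alternative chosen after seeing the data, as was the comparison of stage by sex.

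The 35 genes, the lists and the tests were chosen with earlier results of these data known. Values in every mouse with full statistics were to be given for up to 10 genes per comparison, those with the smallest unadjusted p under 0.05 whose groups did not overlap, and any called gene was to be named. Up to 3 genes per other list and comparison were to be named, and promoter stretches printed for up to 6 genes with an ERSE, ERSE-II or UPRE core, by smallest p in KO against WT Res females. Only matches before the gene's start were printed, which passes over *Dnajb11*. Not every gene of this rule is printed with its values in every mouse, some in the comparisons of differences are only counted, and values of other genes were added after they had been seen. Protein sequences were not used here.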

Additional observations from a re-analysis of the deposited data

How the results depend on the processing

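With 3 mice in a condition, counts of calls turned on single mice and on the tool, and no called fold change changed sign under the settings run. A median was taken to have moved when it shifted by more than 1 SD between mice of a condition. With all mice this held for KO against WT Res females with library totals (-0.72), whereas that of KO against WT WDA males went from -0.21 to -0.017 there within a wider spread. With DESeq2 the genes called numbered 12 in KO against WT Res females, 3 in the KO effect by sex, 2 in HepKO against WT, 4 in Res against WDA in WT females, 2 in KO males, 10 in males against females on WDA, 4 after resolution and 1 in stage by sex. With the spread shared by all 27 libraries they numbered 3 in KO against WT Res females, 3, 1 and 7 in Res against WDA in WT females, WT males and KO females, and 10 and 4 in males against females on WDA and after resolution. In WT males, library totals and FPKM with limma each left 4. After resolution, upper quartile scaling left 1 (*Asns*) and a minimum of 10 counts in every sample 1 (*Ppp1r15a*, since *Asns* was then not tested). With the libraries of high cholangiocyte markers left out, a setting chosen after seeing the data, 15 genes were called between the sexes on WDA and 5 after resolution.

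Leaving out 1 mouse at a time gave 0 to 14 calls in KO against WT Res females (median -0.62 to -0.31), 0 to 1 in the KO effect by sex (median -0.87 to -0.45), 0 to 1 in HepKO against WT, 1 to 13 in Res against WDA in WT males, 3 to 15 in KO females, and 0 to 13 and 1 to 3 in males against females on WDA and after resolution. The median of KO against WT lay between -0.053 and 0.22 in Res males, between -0.13 and 0.13 in WDA females and between -0.29 and -0.040 in WDA males, and that of Res against WDA in WT females between 0.036 and 0.32. The causes were not tested. No paired analysis was possible because mouse numbers name single animals and do not link mice of different conditions. *Derl3* and *Asns*, at under 1 CPM in some libraries, rest on few counts there.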
